A study of Mus musculus with 4 samples.

Results

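The 10 receptors described here are G protein-coupled receptors through which pancreatic islets read hormones, nutrients and nerve signals (Glp1r, Gipr, Gcgr, Ffar1, Gpr119, Adra2a, Sstr3, Galr1 and Chrm3), together with the orphan receptor Gpr19, whose ligand is not settled. They were taken by name, and their 12 probes were found through the RefSeq accession given for each probe, out of 56605 probes on the array and 26378 genes tested. The set was chosen by name but with the log2 differences between Rb-deficient and control islets on these arrays in view, that of Gpr19 included, so those differences are described and not tested. All 12 probes were well above background on all 4 arrays.

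The study measured islet RNA on single-colour Agilent arrays, 1 mouse per array. Controls, titled wild type by the submitters, carried the Pdx1-Cre transgene alone (2 mice), and Rb-deficient islets came from mice of the genotype Pdx1-Cre:Rbf/f, with floxed Rb alleles (2 mice). All 4 mice therefore carried Pdx1-Cre, whose promoter is active in the pancreatic progenitors that give rise to endocrine, acinar and duct cells, so that recombination need not be confined to beta cells. Age and sex are not given in the sources used here.

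G protein-coupled receptors sit in the cell membrane and pass an outside signal to a G protein, and the class of that G protein sets the effect on the islet cell. Receptors coupled to Gs raise cyclic AMP and strengthen glucose-stimulated insulin release, those coupled to Gi and Go lower cyclic AMP and restrain it, and those coupled to Gq release calcium through phospholipase C. The incretin hormones GLP-1 and GIP, glucagon, fatty acids, noradrenaline, somatostatin, galanin and acetylcholine all act on islets through this family. The retinoblastoma protein, the product of Rb1, holds back E2F transcription factors and with them the genes of cell division.

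Control array 1 stood apart from the other 3. On it 76.5% of probes were well above background, against 59.0% to 59.9% elsewhere, and the Y-linked gene Eif2s3y had log2 signals of 1.15 and -1.54 in its 2 probes, which were not well above background on any other array. Xist, which coats the silenced X chromosome, read -7.40 there and between -1.35 and -0.65 on the remaining arrays. Differences without control array 1 are therefore given beside the receptor values. The deleted gene Rb1 had log2 signals of 0.28 and 0.86 in control islets and -0.48 and -0.90 in Rb-deficient islets, and both of its probes were lower on both Rb-deficient arrays. Where these probes lie relative to the floxed part is not known here, so they do not check the genotype. All 10 beta cell markers, Ins1, Ins2 and Iapp among them, were well above background on all arrays.

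Each value below is the log2 of the processed signal relative to the 75th percentile of that array over its non-control probes, so that 0 is the level of the 75th percentile. Values of different probes cannot be ranked against each other, because probes differ in brightness at equal RNA. Differences are Rb-deficient minus control with the standard error (SE) from the spread within the groups of 2, and the number of arrays limits the precision.

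The receptors did not differ in one common direction. Gpr19 and Gpr119 were higher on both Rb-deficient arrays, by 2.62-fold and 1.95-fold in mean, Ffar1 and Chrm3 were higher by 1.28-fold and 1.25-fold, and the incretin, glucagon, adrenergic and somatostatin receptors differed more between the 2 Rb-deficient mice than between the groups. For 4 of the 10 genes both Rb-deficient values lay above both control values, and for 0 both lay below. Over all 26378 genes tested the corresponding shares were 15.3% above and 20.7% below. In mean, 7 of the 10 receptors were higher in Rb-deficient islets, where 41.9% of all genes were. Since the receptors were picked with this contrast known, nothing is read from either count. The median difference of the 10 receptors was 0.16 log2 units, and that of all genes was -0.07. The median of the receptors ran from 0.09 to 0.34 with 1 array left out, and was 0.60 with median scaling.

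**Figure D1:**
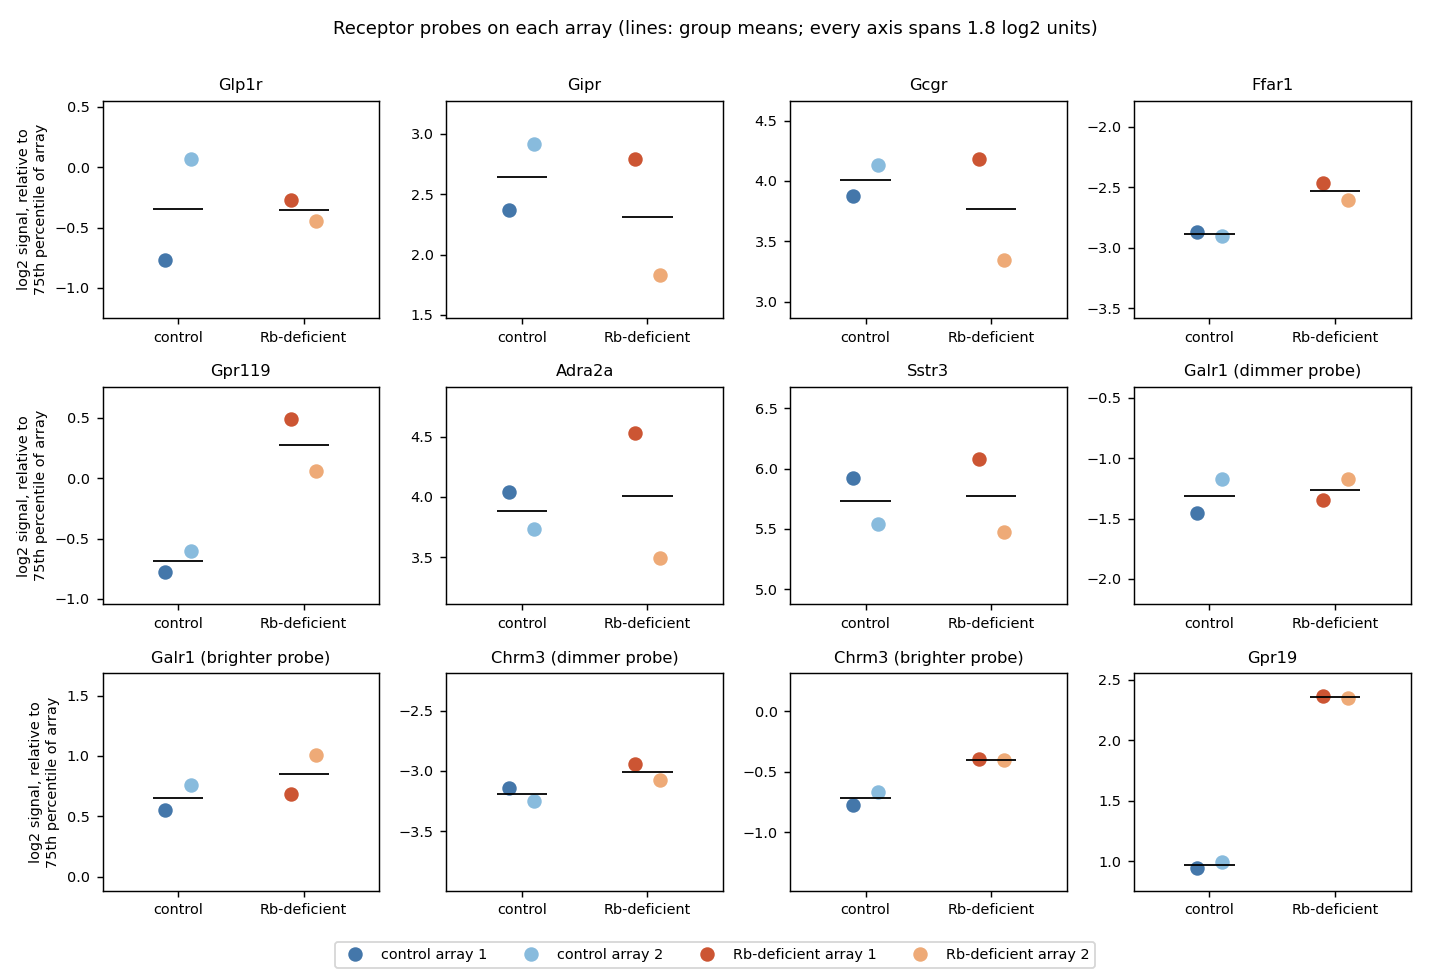
Log2 signal of each receptor probe, relative to the 75th percentile of its array, on the 2 control and 2 Rb-deficient arrays. Points are arrays, horizontal lines are group means, and each vertical axis spans the same number of log2 units. The groups stand apart for Gpr19, Gpr119, Ffar1 and both Chrm3 probes, and overlap for the other receptors.

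Gpr19 encodes an orphan receptor that is mostly studied in brain and in dividing tumour cells. Its probe read 0.94 and 0.99 in the control mice and 2.37 and 2.35 in the Rb-deficient mice. The 2 groups were separated by a gap of 1.36 log2 units, far wider than the spread within either of them. The difference was 1.39 (SE 0.028, n = 2 against 2), a 2.62-fold higher mean, and 1.36 without control array 1. Of all genes 0.876% had a higher difference, and 98.4% had a larger pooled standard deviation within groups. Because Gpr19 was listed with this difference in view, its rank and its small spread describe these arrays and are not support for a change. In raw processed intensity the probe read 692 and 818 units in control islets and 1876 and 2489 in Rb-deficient islets, so the groups were separate before any scaling too. Across the 12 alternative settings the difference lay between 1.29 and 1.83. Some of them could not move it: the changed filters on dim probes, the averaging of probes and the replicate block. Gpr19 has 1 probe, well above background on all 4 arrays, and the block is balanced over the groups.

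The promoter of Gpr19 is shown with the match to an E2F word in capitals. Beside it is the promoter of Gpr119, which had the next largest difference and holds no such match. Whether E2F factors act on either gene was not tested. Both are RefSeq windows on GRCm38.p6, from 250 bases before to 50 bases after an annotated start, on the strand of the gene, which is the minus strand for each. Gpr19 lies at chr6:134897776-134898075 and Gpr119 at chrX:48674429-48674728.
Gpr19: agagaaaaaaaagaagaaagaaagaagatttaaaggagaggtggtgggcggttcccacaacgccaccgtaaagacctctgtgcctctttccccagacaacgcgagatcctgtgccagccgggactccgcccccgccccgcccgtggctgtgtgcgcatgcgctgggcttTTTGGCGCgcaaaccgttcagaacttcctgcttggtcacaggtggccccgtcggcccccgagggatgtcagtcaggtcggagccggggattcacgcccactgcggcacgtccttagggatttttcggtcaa
Gpr119: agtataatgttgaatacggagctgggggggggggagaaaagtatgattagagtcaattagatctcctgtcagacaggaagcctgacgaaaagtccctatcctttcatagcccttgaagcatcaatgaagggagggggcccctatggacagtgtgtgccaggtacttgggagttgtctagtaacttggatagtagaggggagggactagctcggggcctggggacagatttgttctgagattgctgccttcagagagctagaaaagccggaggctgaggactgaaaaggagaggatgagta

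The words searched for E2F were TTTCCCGC, TTTCGCGC, TTTGCCGC and TTTGGCGC on both strands, and 2.26% of all 32851 promoter windows held at least 1 of them. In the Gpr19 window the match TTTGGCGC began 81 bases before the annotated start, and in a second Gpr19 window with an earlier start the same bases lay 20 to 27 bases after it. The other 2 of the 4 Gpr19 windows held none. Windows were found for 8 of the 10 receptor genes, 12 windows in all, and Gpr19 was the one gene among them with an E2F word. The cell cycle homology word TTTGAA, found in 17.9% of all windows, and the cyclic AMP response word TGACGTCA, found in 1.79%, were in 0 of the 12 windows. Galr1 and Gipr had no window. A match describes the letters and not a bound factor, and no other word searched overlapped it.

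Among 15824 genes with a symbol, the 3 whose profile over the 4 arrays came out nearest to that of Gpr19 were Klra16, Dgkb and Arsk. Likeness was the Euclidean distance between the values of 4 arrays after each gene was centred on its own mean. Klra16, of the lectin-like killer cell receptor family, was not well above background on either control array and was kept only through the Rb-deficient arrays, so its distance and its place in this order are not measured. Dgkb and Arsk were well above background on all 4 arrays, at distances of 0.17 and 0.19 log2 units. Dgkb, the gene of diacylglycerol kinase beta, read -2.65 and -2.67 in control and -1.43 and -1.41 in Rb-deficient islets. Arsk, the gene of arylsulfatase K, read -2.97 and -3.06 in control and -1.80 and -1.69 in Rb-deficient islets. With only 4 arrays such nearness is a description of these arrays.

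The nutrient receptors Gpr119 and Ffar1 both had higher values on both Rb-deficient arrays. Gpr119, a Gs-coupled receptor for lipid amides and monoacylglycerols and a target of insulin-releasing compounds, read -0.78 and -0.60 in control islets and 0.49 and 0.06 in Rb-deficient islets. Its difference was 0.96 (SE 0.23), or 1.95-fold, and 0.87 without control array 1. The gene lies on the X chromosome, and control array 1, with Y-linked signal, and control array 2, without it, differed by 0.18 log2 units for this probe. The 2 mice were not equally high, since the first Rb-deficient mouse stood 1.18 and the other 0.75 above the mean of the controls.

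Ffar1, also called Gpr40, is the Gq-coupled receptor for long-chain fatty acids on beta cells. It read -2.87 and -2.90 in control islets against -2.46 and -2.60 in Rb-deficient islets. The values did not overlap, and the difference was small, 0.35 (SE 0.071), or 1.28-fold, and 0.37 without control array 1. Its raw intensity was low, 49.3 and 55.0 units in control and 65.9 and 80.5 in Rb-deficient islets. The medians of the same arrays were 49.2, 34.9, 31.7 and 35.5 units, so it was at the median on control array 1 and above it elsewhere. With normexp background correction or another setting its difference ran from 0.17 to 0.79, so its size was less settled than its sign.

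Chrm3, the muscarinic receptor through which parasympathetic acetylcholine acts on beta cells by Gq, was read by 2 probes. The brighter probe gave -0.78 and -0.67 in control islets and -0.40 and -0.40 in Rb-deficient islets, a difference of 0.32 (SE 0.056), or 1.25-fold. For the dimmer probe the values were -3.14 and -3.25 against -2.94 and -3.08, a difference of 0.19 (SE 0.088). Both probes thus had groups that did not overlap, but for the dimmer one the gap was only 0.062 log2 units, and its difference was 0.051 with normexp and 0.635 with quantile normalization. Without control array 1 the differences were 0.27 and 0.24.

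The receptors for the incretins and glucagon overlapped between the groups. Glp1r, the Gs-coupled receptor for GLP-1 and the target of incretin drugs, read -0.76 and 0.07 in control islets and -0.27 and -0.44 in Rb-deficient islets. The 2 control mice lay on either side of both Rb-deficient mice. Its difference was -0.01 (SE 0.42), and the sign turned with quantile normalization and with median scaling. Leaving out control array 1 gave -0.43 and leaving out control array 2 gave 0.41. Leaving out Rb-deficient array 1 gave -0.09 and leaving out Rb-deficient array 2 gave 0.08, so the direction followed which arrays were kept.

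Gipr, the Gs-coupled receptor for GIP, read 2.37 and 2.92 in control islets and 2.79 and 1.83 in Rb-deficient islets. Gcgr, the receptor for glucagon, which beta cells also carry and which couples to Gs, read 3.88 and 4.13 against 4.18 and 3.35. In both cases Rb-deficient array 1 lay within or just above the control range and Rb-deficient array 2 lay below it. The differences were -0.33 (SE 0.55) for Gipr and -0.24 (SE 0.44) for Gcgr, and both turned positive with median scaling. Without Rb-deficient array 2 they were 0.15 and 0.18, and without Rb-deficient array 1 they were -0.81 and -0.66. Leaving out the first control gave -0.61 and -0.37, and leaving out the other gave -0.06 and -0.11.

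The inhibitory receptors overlapped as well. Adra2a, the alpha2A adrenergic receptor through which noradrenaline shuts off insulin release, read 4.04 and 3.73 in control islets and 4.53 and 3.49 in Rb-deficient islets. The highest and the lowest value were both from Rb-deficient mice. Sstr3, a somatostatin receptor of mouse beta cells found on their primary cilium, read 5.92 and 5.54 against 6.08 and 5.47, with the same order of arrays. Their differences were 0.12 (SE 0.54) and 0.04 (SE 0.36), and both turned negative without Rb-deficient array 1, to -0.39 and -0.26. Both also turned negative without control array 2, to -0.03 and -0.15. Leaving out control array 1 gave 0.28 and 0.23, and leaving out Rb-deficient array 2 gave 0.64 and 0.35.

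Galr1, a Gi-coupled receptor for galanin, was read by 2 probes. The brighter probe gave 0.56 and 0.76 in control islets and 0.69 and 1.01 in Rb-deficient islets, a difference of 0.19 (SE 0.19). For the dimmer probe the values were -1.45 and -1.17 against -1.35 and -1.17, a difference of 0.05 (SE 0.16). The groups overlapped with both probes, and without control array 1 the differences were 0.09 and -0.09.

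**Figure D2:**
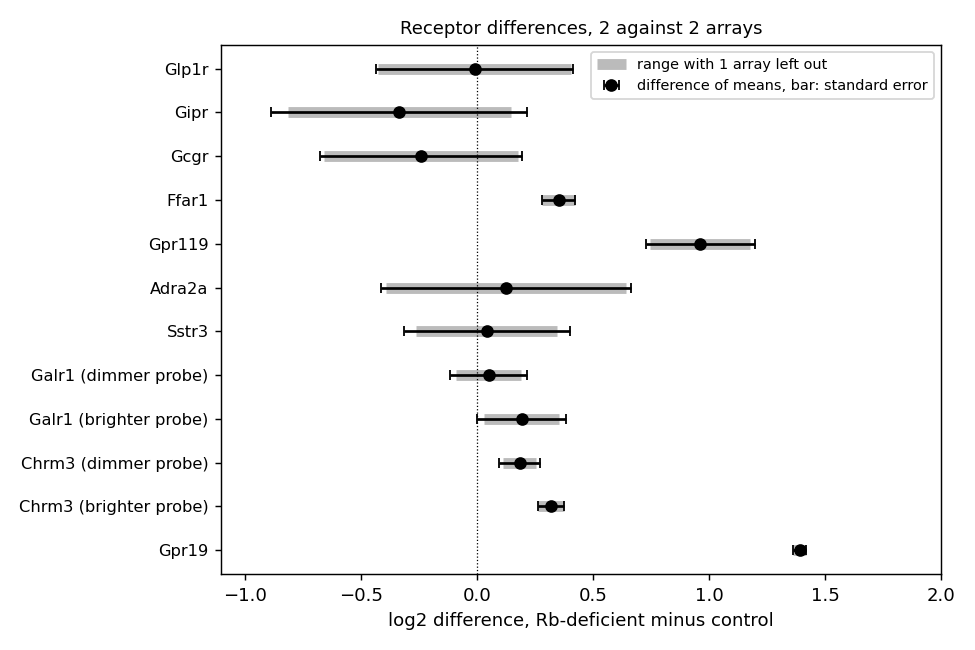
Difference of log2 signal, Rb-deficient minus control, for each receptor probe. Points are differences of means of 2 against 2 arrays, black bars are standard errors, and grey bars give the range when 1 of the 4 arrays is left out. Gpr19 at 1.39 and Gpr119 at 0.96 lie farthest from 0, and the grey bars of Glp1r, Gipr, Gcgr, Adra2a, Sstr3 and the dimmer Galr1 probe cross 0 (with median scaling Glp1r, Gipr and Gcgr are above 0, and Glp1r also with quantile normalization).

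Within the Rb-deficient group, 9 of the 10 receptors were lower on array 2 than on array 1, where 55.9% of all genes were. Both shares hold for scaling to the 75th percentile, which was 364 units on array 1 and 488 on array 2. The array medians were nearer to each other, 31.7 and 35.5 units, so the sign of the smaller gaps depends on the scaling. The value on array 2 minus that on array 1 was -1.03 log2 units for Adra2a, -0.96 for Gipr, -0.83 for Gcgr and -0.61 for Sstr3, or 2.05-fold, 1.94-fold, 1.78-fold and 1.52-fold. For Gpr19 and the brighter Chrm3 probe the change from array 1 to array 2 was -0.018 and -0.0086 log2 units. Some receptors thus differed widely between these mice and some barely differed, an order noticed after the values were seen.

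Markers of several cell types differed between the same 2 arrays. The median over 10 beta cell markers was 0.14 on Rb-deficient array 1 and -0.083 on array 2, each relative to the mean of the controls. The 7 alpha cell markers lay at -0.48 and -1.19 in median, and the 10 acinar markers at -0.44 and -1.28. The 10 macrophage markers lay at 0.35 and 1.15, the 6 endothelial markers at -0.04 and 0.38, and the 6 stromal markers measured at -0.22 and 0.70. The 6 markers of delta, PP and epsilon cells lay at -0.70 and 0.09, the 6 duct markers at -0.28 and -0.39 and the 5 neural markers measured at -0.59 and 0.14.

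The summed signal of the acinar list was 7484 and 6174 times the 75th percentile for the controls and 5524 and 3109 for the Rb-deficient mice, with 10 of 10 members lower in mean and none at 0. The summed signal of the beta cell list was 3519 and 3152 against 3408 and 2435, and that of the alpha cell list 798 and 846 against 725 and 322. For the macrophage list, with 9 of 10 members higher in mean, it was 44.8 and 42.7 against 48.5 and 37.4. That sum was carried mostly by its brightest member, Itgam, which was also the 1 member lower in mean. Relative to the 75th percentile, Rb-deficient array 2 thus had the lowest summed signal for beta, alpha, acinar and macrophage markers, beside low values of Adra2a, Gipr, Gcgr and Sstr3. That percentile was itself highest on this array, 488 units against 361, 411 and 364, so the ranks of the beta and macrophage sums depend on the scaling. In raw intensity Gipr and Gcgr were lowest there too. Adra2a and Sstr3 were not, at 5504 and 21683 units against 5464 and 19141 on control array 2. Rb-deficient array 2 had the highest sums for endothelial and stromal markers and for those of delta, PP and epsilon cells, 1531 against 808 on Rb-deficient array 1. That last rise was carried by Ppy and Pyy, at 6.30 and 5.70 on array 1 and 9.28 and 8.64 on array 2. Of the 6 members 3 were lower on array 2 than on array 1. Sst, of delta cells, and Ghrl, of epsilon cells, had their lowest values on array 2, 8.87 and -4.31. The beta cell sum too was carried by its brightest members, with 6 of the 10 higher in mean and a list median of -0.083 on array 2. The part of cell makeup in the receptor values was not tested. In bulk islets fewer cells of a type and less RNA per cell cannot be told apart.

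**Figure D3:**
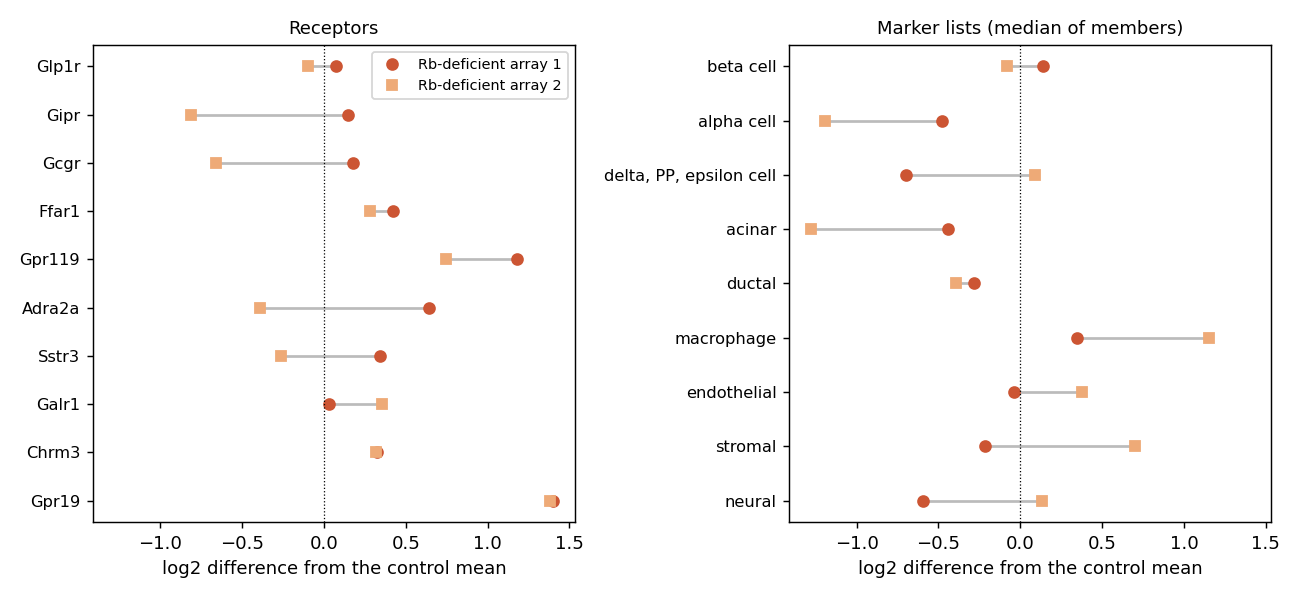
Log2 distance of each Rb-deficient array from the control mean, for the 10 receptors (left, brighter probe where there are 2) and for lists of cell type markers (right, median of the list). Circles are Rb-deficient array 1 and squares are array 2. Gipr and Gcgr lie at -0.81 and -0.66 on array 2, the alpha cell and acinar lists at -1.19 and -1.28, while Gpr19 is at 1.40 and 1.38 on the 2 arrays.

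The partners of these receptors are genes that the choice by name did not include, and they were tested, although their lists too were drawn up with earlier results of these arrays known. Across all 26378 genes limma called 0, or 0.0%, at an adjusted p under 0.05, while 1493 genes, or 5.66%, had an unadjusted p under 0.05. The 7 lists of ligands, related receptors and signalling genes held 117 genes, of which 103 were measured. None of the 103 was called, 6 had an unadjusted p under 0.05, and the lowest adjusted p (limma, Benjamini-Hochberg) was 0.513. Genes named below are those with the smallest p in each list, and their values are given without a call.

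Of the 5 ligand genes 4 were measured, and 0 passed the test in either direction, with a median difference of -0.56 against -0.07 for all genes. Gcg, the source of glucagon and of GLP-1, read 9.34 and 9.44 in control islets and 9.26 and 7.96 in Rb-deficient islets. Gal, the gene of the Galr1 ligand galanin, read 2.84 and 2.84 against 2.91 and 1.06. Sst, the gene of somatostatin, read 9.37 and 9.26 against 9.31 and 8.87. The low values of all 3 were on Rb-deficient array 2. The median of the 4 genes was -0.07 on Rb-deficient array 1 alone and -0.94 on array 2 alone, each against the mean of the controls. With median scaling the median difference of the list was -0.13, with 2 of the 4 higher in mean. With quantile normalization it was -0.37, with 1 higher. Cort, the gene of cortistatin, which also binds somatostatin receptors, had a difference of -0.35 (SE 0.16). Gip had no probe that was kept.

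The closest relatives of the receptors made up a list of 24, of which 16 were measured and 0 were called. Their median difference was -0.40, with 1 of 16 higher in mean, a count that was 4 with quantile normalization and 10 with median scaling. In 6 of them both Rb-deficient values lay below both controls, where 20.7% of all genes did so. Adrb1 and Sctr are among the 6 and were kept only through the control arrays, so nothing is read from this count. With genes well above background on all 4 arrays, 14 of the relatives remained, with a median of -0.29 and 1 higher in mean. Adrb1, the beta1 adrenergic receptor, read -4.29 and -4.38 in control islets and did not clear background on either Rb-deficient array, being at least 1.98-fold lower (limma, Benjamini-Hochberg adjusted p 0.753). Sctr, the secretin receptor of ducts, read -4.64 and -3.06 against -5.87 and -4.89, of which the -5.87 was not well above background. Its measured difference of -1.53 (SE 0.93) ran from -2.32 to -0.74 with 1 array left out. The GLP-2 receptor gene Glp2r had -0.41 (SE 0.12) and Vipr1, a receptor for vasoactive intestinal peptide, -0.40 (SE 0.31). Without control array 1 the median of the list was -0.16, with 5 of 16 higher, and it was -0.21 without Rb-deficient array 1 and -0.20 with normexp.

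Of the 22 other islet receptors 20 were measured and 0 called, with a median of -0.09 and 9 of 20 higher in mean. Cckar, the cholecystokinin receptor of acinar cells, read 2.02 and 1.57 in control islets and 0.52 and -0.67 in Rb-deficient islets, a difference of -1.87 (SE 0.64, limma adjusted p 0.788). The median of the acinar markers had the same order over the 4 arrays, 9.73 and 9.40 against 9.20 and 8.24, and their part in the Cckar value was not tested. Ptger3, a prostaglandin E2 receptor coupled to Gi, had a difference of -1.34 (SE 0.54), with -1.67 in its other probe. Oxtr, the oxytocin receptor, had -0.85 (SE 0.41) and Cnr1, the cannabinoid receptor CB1, 0.66 (SE 0.31). The median of this list was 0.22 with quantile normalization and 0.35 with median scaling. With 1 array left out it ran from -0.38, without Rb-deficient array 1, to 0.02, when control array 1 was the one dropped.

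The genes that carry the Gs signal were divided between the directions at the scaling used here. Of 28 genes 26 were measured, 14 were higher and 12 lower in mean, 0 were called, and the median was 0.03. With median scaling 22 of the 26 were higher and the median was 0.47. Adcy1, an adenylyl cyclase stimulated by calcium and calmodulin, read -4.13 and -4.00 in control islets and -5.26 and -5.40 in Rb-deficient islets, of which the -5.26 was not well above background (limma, Benjamini-Hochberg adjusted p 0.513). Adcy3, another adenylyl cyclase, had a difference of -0.59 (SE 0.24). Pde3b, the phosphodiesterase that removes cyclic AMP in beta cells, read 2.86 and 2.84 against 3.18 and 3.21, a difference of 0.35 (SE 0.015) that was 0.15 in its other probe. For Pde1c, a calcium-dependent phosphodiesterase, the difference was 0.81 (SE 0.26), but -0.37 in its other probe.

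For the Gi, Go and Gz arm 9 of 10 genes were measured, with 7 higher in mean, 0 called and a median of 0.14 that was -0.03 without control array 1, with 4 of 9 higher there. Gnai3 and Gnai2, which encode inhibitory G protein subunits, had differences of 0.31 (SE 0.090) and 0.35 (SE 0.26), the latter 0.06 in its other probe. Gng4, a gamma subunit gene, had 0.20 (SE 0.065), but -0.01 in its other probe. Kcnj3, a channel opened by G protein beta-gamma subunits, had a measured difference of -1.05 (SE 0.51), and was not well above background on Rb-deficient array 1. All 13 genes of the Gq arm were measured, with 5 higher in mean, 0 called and a median of -0.03. With median scaling 12 of the 13 were higher and the median was 0.40, and without Rb-deficient array 1 the median was -0.36. Gna14, a Gq family subunit, had -0.35 (SE 0.083), the calcium release channel genes Itpr2 and Itpr1 had -0.32 (SE 0.13) and -0.47 (SE 0.38), and Prkce, a protein kinase C gene, had -0.34 (SE 0.43).

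Receptor kinases, arrestins, RGS proteins and receptor activity modifying proteins, which end or shape receptor signals, were all measured, 15 genes with 9 higher in mean, 0 called and a median of 0.12. That median was -0.04 when the probes of a gene were averaged, 0.05 without control array 1 and 0.56 with median scaling. Grk4, a receptor kinase, had a difference of -0.97 (SE 0.29), and its other probes ran from -1.69 to -1.16. Rgs16, which speeds the shut-off of Gi and Gq and is expressed in developing islets of mice, read 2.81 and 2.82 in control and 2.39 and 2.52 in Rb-deficient islets, a difference of -0.36 (SE 0.066). The kinase Grk3 had 0.27 (SE 0.11) and Ramp2, which partners the calcitonin receptor-like receptor, 0.38 (SE 0.30).

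**Figure D4:**
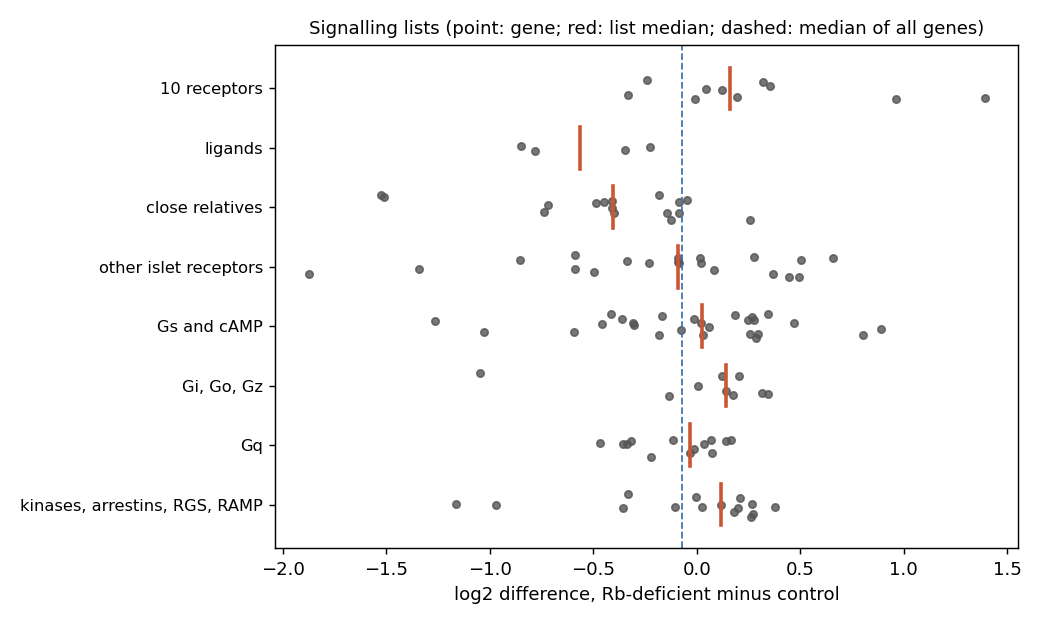
Log2 difference, Rb-deficient minus control, of each measured gene in the 10 receptors and in the 7 lists of ligands, related receptors and signalling genes. Points are genes, spread vertically only for legibility, red bars are list medians and the dashed line is the median of all genes, -0.07. List medians run from -0.56 for ligands to 0.16 for the 10 receptors, and those other than the ligand median are above 0 with median scaling.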

How the data were processed

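The deposited scanner files give an intensity for each of 62976 spots. They were written by Agilent Feature Extraction 12.0.3.1 under a single-colour protocol, per the file headers, on a design annotated on mm9, and the processed intensity is corrected for background within the array and not scaled between arrays. All 4 arrays lay on 1 slide with 1 scan time, so no batch could be set against the groups. The authors' deposited value table holds the same intensity times a constant per array (1.74 to 2.49, within 1% at all 48058 features), linear and not centred; the statistic behind the constants is not given in the sources used here. Its column medians were 220, 181, 188 and 157 for the control and then the Rb-deficient arrays, and it served as an alternative.

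Control spots and outlier spots (64 to 93 per array) were left out, no spot was saturated, and 32994 of 56605 probes (58.3%) got a symbol through RefSeq accessions of GRCm38.p6. Probes well above background on both arrays of a group were kept (33848), and the brightest stood for a gene. Groups came from the sample titles. Genes outside the 10 receptors were tested with limma 3.58.1 in R 4.3.3. The test was two-sided without covariates, with 2 residual degrees of freedom and a threshold of 0.05 after Benjamini-Hochberg adjustment over all genes. The step was also run on simulated data with the same spread for every gene. Spread differs between genes on these arrays, so that run does not tell how many changes are missed here. Where neither array of a group was well above background, a fold is a bound against the lowest such signal of each array, or the probe's own if higher. The mean spot signal is not a column of these files, so the normexp alternative (offset 50) started from the median signal.

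Named were all receptors and, of each list, up to 4 genes with the smallest p. The receptors and lists were chosen with earlier results of these data known. p-values rest on the spread between 2 mice per group. For each gene limma draws this spread toward that of all genes tested, with 1.82 prior degrees of freedom.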

Additional observations from a re-analysis of the deposited data

How the results depend on the processing

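The count of receptors with a higher mean in Rb-deficient islets, 7 of 10, lay between 5 and 10 in all 12 alternatives. The changed filters on dim probes and the replicate block cannot move the difference of a receptor. Averaging of probes can do so only for Chrm3 and Galr1, so these settings are little check on the receptors. Gpr19, Gpr119, Ffar1 and the brighter probes of Chrm3 and Galr1 kept their sign in each of the 12 alternatives. The dimmer Chrm3 probe kept its sign in the 11 that give it a value. The differences lay within 1.29 to 1.83 for Gpr19, 0.75 to 1.40 for Gpr119 and 0.17 to 0.79 for Ffar1. Signs turned in 4 alternatives for Glp1r and in 2 each for Gipr, Gcgr, Adra2a, Sstr3 and the dimmer Galr1 probe. Scaling to the array median moved the median difference of all genes by 0.44 and receptor values under it carry that shift. Quantile normalization moved that median by 0.10, while it moved receptors both ways, Ffar1 from 0.35 to 0.72 and Gpr19 from 1.39 to 1.35. With median scaling limma called 480 genes, of which 234 were higher, and 0 of the 103 signalling genes. Leaving out 1 array gave 0 to 4092 calls over all genes and 0 to 4 among the signalling genes, the highest of each without control array 2. The 4 were Adcy8, Adrb3, Chrm5 and Gip, none of which was measured with all arrays and each of which cleared background with a probe on control array 1. The replicate block gave 0 calls in both, and 3160 genes with an unadjusted p under 0.05. The numbers are not known to pair mice: same-numbered arrays deviated together with r = 0.28 over probes, from a single pair of deviations. The probe of Ffar1 and the dimmer probe of Chrm3, at 40.9 to 80.5 intensity units, are where signal over background limits the values most.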

Other observations

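Of the related and other islet receptors, 10 had no probe that was kept. On control array 1, 4 of these 10 had a probe well above background, on control array 2 and Rb-deficient array 2 there were 0, and on Rb-deficient array 1 there was 1. The gene of the somatostatin receptor Sstr2 and that of the galanin receptor Galr2 had no probe above background on any array, so that of these families the values rest on other members. Sstr5, chosen after its values were seen, read 2.42 and 2.43 in control islets and 2.25 and 2.24 in Rb-deficient islets, a difference of -0.18, while its other kept probe had a difference of -0.0022.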
